A study of Mus musculus with 19 samples.

Results

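*Spehd*, a long noncoding RNA of mouse hematopoietic stem and progenitor cells that is transcribed next to *Gata2*, was targeted in this series with a pair of shRNAs, 12928-10 and 12928-20, here called sh10 and sh20. The libraries described here are the common myeloid progenitors (CMPs) that carried either of them, which are 5 of the 19 libraries of the series. They were chosen by their labels alone, with 2 CMP libraries of sh20 (replicates B and C) set against 3 CMP libraries of sh10 (replicates A, B and C). The question is which genes differ between cells in which a different hairpin was aimed at the same lncRNA.

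The donor cells were hematopoietic stem cells (HSCs) of female C57BL6J mice (CD45.2), transduced with a hairpin in a doxycycline-inducible vector with an ultramiR backbone, which makes the shRNA and the green reporter zsGreen when doxycycline is given. They were transplanted without competitor cells into sublethally irradiated C57BL/6-CD45.1;cKit-w41 recipients of both sexes, whose own HSCs carry a weakened Kit receptor. All groups, the controls included, were left for 10 weeks to reconstitute and received doxycycline in the food for the 6 days before the bone marrow was taken, and zsGreen+ cells were sorted. The controls carried an shRNA against *Renilla* luciferase, a gene that mice lack, with 4 CMP libraries. The same hairpins were also sequenced in LSK cells (KLS in the labels), the Lin- Sca1+ cKit+ population that holds the HSCs, with 3 libraries of sh20, 3 of sh10 and 4 of *Renilla*. The labels do not say whether replicates are separate recipients, or whether a CMP and an LSK library come from the same animal, so p-values measure the spread between these libraries.

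An shRNA is transcribed as a hairpin that Drosha and Dicer cut to a small RNA of the same form as a miRNA. One strand, the guide, is held by an Argonaute protein and leads it to RNAs that pair with it. A match over the whole guide leads to cleavage of the target, while a match to the seed alone (guide bases 2 to 8), mostly within a 3′ UTR, can lower many RNAs a little, as a miRNA does. Hairpins against the same target have different seeds, so that each is commonly checked against the other.

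The guides are shown because they are what distinguishes the groups. They were read from bases 60 to 81 of the 97-base hairpin oligos of the study, and are given 5′ to 3′ as RNA with the seed in capitals, followed by the DNA of the target site with the seed match in capitals.
sh10 guide: uACAAAGUcagcuuuuccucuc
sh20 guide: uAUGCUAUgacaacccagggca
*Renilla* guide: uAGAUAAGcauuauaauuccua
sh10 target site: gagaggaaaagctgACTTTGTa
sh20 target site: tgccctgggttgtcATAGCATa
All 3 guides are 22 bases long and start with U, and 9 bases of the sh10 guide and 11 of the sh20 guide are G or C. Each seed holds 2 such bases. None of the 1679 mature mouse miRNA names in the RefSeq table has the same bases 2 to 8, or 2 to 7, as any of the 3 guides. The position of the target sites in the genome was not analysed here.

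The CMP libraries of sh20 held 5965155 and 5680969 counts on genes, those of sh10 4918631, 5228700 and 4992896, and those of *Renilla* 3857980 to 4314959. Although they were the deepest, the sh20 libraries held the fewest genes. At least 1 count was found for 17174 and 18066 genes with sh20, for 19042 to 20275 with sh10 and for 18552 to 20173 with *Renilla*. With every library thinned at random to 3647318 counts, the numbers were 16167 and 17156 with sh20, 18182 to 19262 with sh10 and 18259 to 19675 with *Renilla*. In LSK cells sh20 was again lowest, with 16893 to 17232 thinned genes with sh20, 18941 to 19848 with sh10 and 18322 to 19396 with *Renilla*. The groups of sh20 and sh10 did not overlap in either cell type. Within CMPs the difference in thinned genes was -1954 with an exact permutation p of 0.1, the smallest that 2 against 3 libraries allow. With labels permuted within both cell types it was -2098, and the two-sided exact permutation p of 0.005 was the smallest that 200 arrangements allow (adjusted p = 0.02 over 8 measures). Whether fewer cells went into the sh20 libraries was not tested, and in bulk RNA fewer cells of a type and less RNA per cell cannot be told apart.

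**Figure D1:**
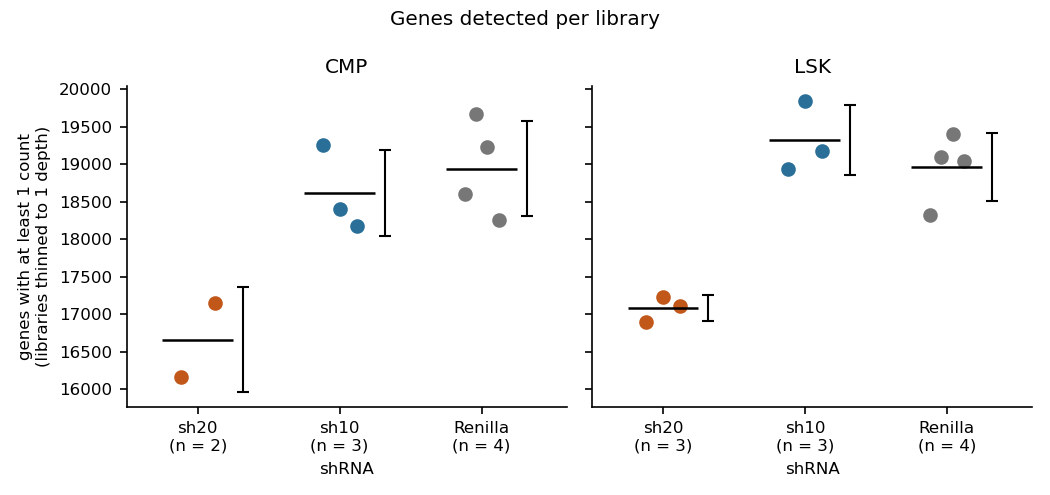
Genes with at least 1 count in each library (points) after thinning to 3647318 counts, by shRNA, for CMP (left) and LSK (right); the horizontal line is the mean and the bar beside it the SD. The sh20 libraries lie between 16167 and 17232 genes, below all libraries of sh10 and *Renilla*.

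The 2 sh20 libraries were also the least alike. Over 10170 genes, the median absolute log2 difference between replicates B and C of sh20 was 0.283, against 0.141 to 0.158 between sh10 libraries and 0.170 to 0.202 between those of *Renilla*. They differed by 4-fold or more in 389 genes, while sh10 libraries did so in 1 to 4. Replicate B had 11 genes at 0 that held at least 20 counts in every other CMP library, and no other library of sh10 or sh20 in CMPs had one. Every comparison within CMPs therefore rests on 2 unequal libraries on one side. The mean exonic length behind a count was 5613 and 5668 bases with sh20 and 5764 to 5834 with sh10, and the share of reads without a unique alignment was 47.9% and 47.6% against 41.0% to 43.2%.

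In CMPs, some genes of T and NK cells, of megakaryocytes and of the interferon response were among those higher with sh20 than with sh10. The T and NK cell genes belong to a lymphoid list in which 12 of 31 tested genes had negative differences. Among those lower with sh20 were genes of many kinds that were close to 0 and, by smaller amounts, genes of chromatin regulators, nuclear pores and ribosome biogenesis. Of 13824 genes tested by edgeR's quasi-likelihood test, 816 passed an adjusted p of 0.05, which is 5.90%. They were 355 genes higher with sh20 (2.57%) and 461 lower (3.33%). Changes were large in a part of them: 130 of the higher and 141 of the lower genes differed by 4-fold or more. Without overlap between the CPM (counts scaled by the library total on genes) of the 2 groups were 19.7% of all tested genes on the higher side and 22.6% on the lower side, against which any lack of overlap is to be read. DESeq2 called 935 genes higher and 1043 lower, which included every gene edgeR called. With the sh10 and sh20 libraries alone in the fit edgeR kept 8 of the 355 and 8 of the 461, and with the replicate letter as a block 7 and 15, so that nearly all the calls described here are lost in those fits.

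The deposited counts, from which duplicates had been removed, were also compared before scaling. In 52 of the 461 lower genes the counts of sh20 and sh10 overlapped before scaling, and in 1 more those of sh20 were higher. These 52 differed by -0.562 to -0.191 on the log2 scale after scaling, with a median of 1691 for their mean count. The sh20 libraries had the larger totals, so that a gene higher after scaling had higher counts by construction and the same comparison says nothing of the rises. For the same reason small falls tend to overlap before scaling. The comparison therefore cannot decide whether those falls are real, and shows only that they rest on the scaling. Whether removal of duplicates limits the counts of abundant genes was not tested.

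How many genes passed depended on single libraries. Without sh10 replicate A 24 genes were higher and 63 lower, without replicate B 21 and 50, and without replicate C 92 and 126. Without sh20 replicate C, which leaves replicate B alone with a spread taken from the other groups, 1548 were higher and 1905 lower, and without sh20 replicate B 415 and 581. The *Renilla* libraries enter through the spread, and without one of them 215 to 303 were higher and 347 to 379 lower. In none of these fits did a called gene change its sign, and *Gimap3* and *Prdm10* were among those that passed in every one. The called genes also differed in kind from the rest. The median exonic length was 3340 bases for genes higher with sh20, 5579 for genes lower and 4086 for all tested genes, and the medians of their mean counts were 179, 407 and 226. The part of transcript length and abundance in the calls was not tested beyond the offsets given for the processing.

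The 12 largest rises with a mean of at least 50 counts lay between 3.4 and 6.73 on the log2 scale, and *Cd3g*, *Cd3e* and *Trdc* code for parts of the T cell receptor complex. *Cd3g*, a chain of the T cell receptor complex (chr9:44969572-44980431, mm10), was at 44.1 and 19.2 CPM with sh20 and at 0.828, 0 and 0 CPM with sh10. The *Renilla* libraries, at 8.04 to 18.5 CPM, lay between the groups and overlapped neither. The log2 difference of sh20 minus sh10 was 6.73 (SE 0.886, adjusted p = 0.00885). *Cd3e*, its neighbour and partner in the same complex, was at 33.5 and 11.8 CPM with sh20, at 1.04, 0 and 0.612 CPM with sh10 and at 8.30 to 16.1 CPM with *Renilla* (log2 difference 5.32, SE 0.790, adjusted p = 0.0136). *Trdc*, the constant region of the T cell receptor delta chain, was at 23.4 and 18.8 CPM with sh20, at 1.66, 0.591 and 1.02 CPM with sh10 and at 8.26 to 22.6 CPM with *Renilla* (log2 difference 4.25, SE 0.560, adjusted p = 0.00885). In these 3 genes it is the sh10 libraries that stood apart below the controls, while sh20 overlapped them in *Cd3e* and *Trdc*.

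*Gimap3*, a GTPase of lymphocytes (chr6:48764464-48770851), had the steadiest values of the group. It was at 57.8 and 69.7 CPM with sh20, at 4.56, 4.73 and 4.28 CPM with sh10, and at 92.8, 48.6, 67.0 and 42.4 CPM with *Renilla*. The log2 difference between the hairpins was 3.81 (SE 0.337, adjusted p = 0.00292), and against *Renilla* it was -3.78 for sh10 and 0.03 for sh20. *Gimap3* has close relatives beside it on the chromosome, and reads without a unique alignment are not in its counts. *Lef1*, a Wnt pathway transcription factor of lymphoid cells, was uneven, at 8.41 and 60.8 CPM with sh20 against 0.828, 1.58 and 0.408 CPM with sh10 (log2 difference 5.16, adjusted p = 0.0153).

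Of the other rises, *Mmp9*, a gelatinase stored by neutrophils, was at 27.1 and 16.2 CPM with sh20 and at 0.828, 0 and 0.408 CPM with sh10 (log2 difference 5.64, SE 0.792, adjusted p = 0.0113). *Il1b*, an inflammatory cytokine, was at 43.2 and 12.4 CPM with sh20 and at 1.45, 1.97 and 3.47 CPM with sh10. *Asb2*, a substrate receptor of an E3 ubiquitin ligase, was at 39.5 and 32.2 CPM with sh20 and at 2.07, 2.76 and 2.45 CPM with sh10. *Spib*, an Ets factor of B cells and plasmacytoid dendritic cells, was at 28.1 and 14.5 CPM with sh20, at 0.591 to 1.66 CPM with sh10 and at 1.38 to 9.15 CPM with *Renilla*. *Col17a1*, a collagen of hemidesmosomes, the lincRNA *Gm10419* and the transcribed pseudogene *Gm11346* make up the 12. Against the controls, sh10 did not overlap *Renilla* in 10 of the 12 and sh20 did not in 4 (*Cd3g*, *Spib*, *Gm10419* and *Gm11346*), and in 5 the *Renilla* mean was nearer to sh20. The 12 were chosen for a gap between the hairpins, so that some distance from the controls is built in. The share of all genes without overlap with *Renilla* was not counted.

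The 12 largest falls, from 2.63 to 6.76 on the log2 scale, were genes of many kinds that were close to 0 with sh20. They were at 0 to 6.8 CPM in the sh20 libraries and at 14.9 to 45.1 CPM in those of sh10. *Prdm10*, a zinc finger transcription factor (chr9:31280538-31381723), was at 1.18 and 0.349 CPM with sh20, at 32.5, 32.7 and 30.4 CPM with sh10 and at 22.9, 17.1, 25.3 and 14.9 CPM with *Renilla*. The log2 difference of sh20 minus sh10 was -5.33 (SE 0.481, adjusted p = 0.00292), a level 40.2-fold lower. *Plekha6*, which codes for a protein with a pleckstrin homology domain (chr1:133164210-133303435), had 2 counts in both sh20 libraries together and 316 in those of sh10. Scaled for depth, it was 122 times higher with sh10, with a 95% interval from counting of 33.4 to 1010 times.

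An order with sh10 above and sh20 below the *Renilla* libraries was seen in *Kcng1*, a modifier subunit of potassium channels, and in *Ms4a2*, the beta chain of the IgE receptor of mast cells and basophils. *Kcng1* was at 0.673 and 1.22 CPM with sh20, at 26.9, 18.1 and 37.5 CPM with sh10 and at 3.44 to 7.02 CPM with *Renilla*. *Ms4a2* was at 1.68 and 1.22 CPM with sh20, at 17.6, 20.1 and 29.0 CPM with sh10 and at 3.37 to 7.54 CPM with *Renilla*. *Plekhm3* was different, since sh10 (17.3 to 23.1 CPM) overlapped *Renilla* (16.6 to 25 CPM) and only sh20, at 0.336 and 1.74 CPM, stood apart. In *Itpr3* (an IP3 receptor), *Srl* (sarcalumenin), *Maoa* (monoamine oxidase A), *Lclat1* (an acyltransferase), *Hk2* (hexokinase 2) and *Slc39a14* (a metal ion transporter) sh20 replicate C was higher than replicate B. In *Itpr3* these were 5.75 and 0.504 CPM, beside 30.3 to 32.8 CPM with sh10. Over the 12 falls, sh20 did not overlap *Renilla* in any, and sh10 did not overlap it in 9. As for the rises, the choice by a gap between the hairpins favours such distances, and no share over all genes was counted.

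**Figure D2:**
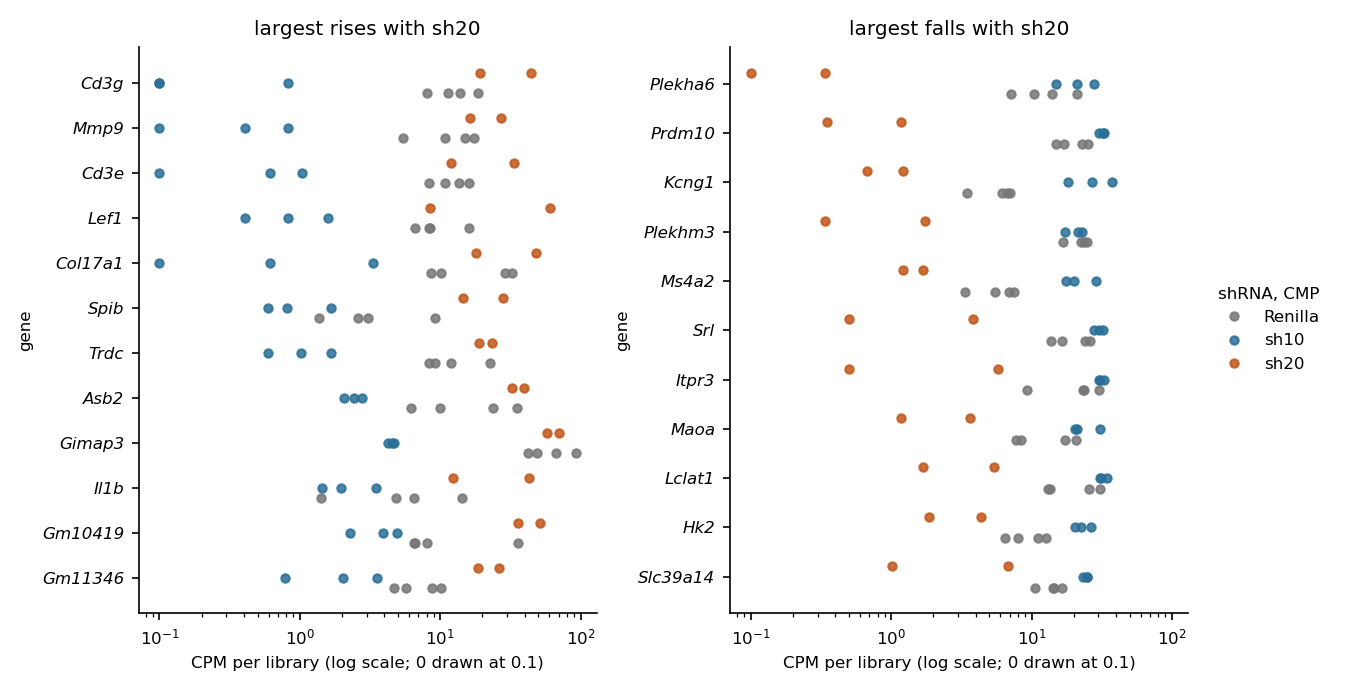
CPM of the 12 largest rises (left) and 11 of the 12 largest falls (right) with sh20 against sh10 in CMPs, on a log scale with 0 drawn at 0.1; each point is 1 library, in orange for sh20, blue for sh10 and grey for *Renilla*. The sh10 points of the rises are at 4.9 CPM or less, below most grey points, and the sh20 points of the falls are at 6.8 CPM or less, below all grey points.

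A stricter pattern was counted over all 54352 genes of the files. With 0 counts in both sh20 libraries and at least 10 in every sh10 library there were 21 genes, and with 0 in every sh10 library and at least 10 in both of sh20 there was 1, the endothelial transcription factor *Sox18*. These numbers cannot be set against each other directly, since 0 was asked of 2 libraries for sh20 and of 3 for sh10. The sh20 libraries also held fewer genes in general. Of the 21 genes, 18 had a count in every *Renilla* library and 8 had at least 10 in each. *Zfp455*, a zinc finger gene, had 21, 34 and 46 counts with sh10 and 15 to 49 with *Renilla*, and over both sh20 libraries it was at least 25.9-fold lower, set against a floor of 3 counts over the group. *Slc39a4*, a zinc transporter, had 41, 26 and 36 counts with sh10 and was at least 26.4-fold lower by the same floor. In LSK cells *Slc39a4* had 1, 69 and 29 counts in the 3 sh20 libraries, so that a value near 0 and much higher ones occurred with the same hairpin.

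Genes that mark single blood lineages were compared next, by lists. Lists are described by their counts and median, beside a median of 0.005 and 5.90% called over all genes tested. In the lymphoid list 7 of 31 tested genes rose with sh20 and 1 fell, and 19 of the 31 differences were positive, with a median log2 difference of 1.26. Besides *Cd3e* and *Cd3g* they were *Cd3d*, the T cell kinase gene *Lck*, *Cd7*, and the NK cell receptor genes *Klrd1* and *Ncr1*. *Cd7* was at 108 and 74.2 CPM with sh20, at 13, 9.45 and 8.16 CPM with sh10 and at 37.2 to 110 CPM with *Renilla* (log2 difference 3.16, SE 0.407, adjusted p = 0.00885). *Ncr1* was at 26.2 and 30.7 CPM with sh20, at 4.56, 4.92 and 7.35 CPM with sh10 and at 29.1 to 71.2 CPM with *Renilla*. *Rag2*, which codes for a subunit of the V(D)J recombinase, had no count with sh20 and 15, 20 and 32 counts with sh10, at least 17.2-fold lower. The summed level of the list, 1290 and 1410 CPM with sh20, 846 to 1250 CPM with sh10 and 1250 to 1590 CPM with *Renilla*, lay within the *Renilla* range with sh20. Of the 39 genes listed, 1 had no count in any of the 5 libraries and 3 had none in both of sh20. *Cd4* and *Cd8a*, which define mature T cell subsets, were at 0 to 3.31 CPM with sh20 and 0 to 0.985 CPM with sh10. The CMP gate takes cells depleted of mature lineages, and the part of other cells in these differences was not tested. Without sh20 replicate B, 16 genes of the list passed as higher and 1 as lower, and without replicate C 12 and 3, with a median of 0.24.

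All 29 tested megakaryocyte and platelet genes had positive differences, with a median of 1.07, and 7 rose. *Gp9*, a subunit of the von Willebrand factor receptor, was at 91.5 and 87.7 CPM with sh20, at 23.8, 26.0 and 31.0 CPM with sh10 and at 43.6 to 89.5 CPM with *Renilla* (log2 difference 1.73, SE 0.264, adjusted p = 0.0145). *Mmrn1*, which codes for the platelet protein multimerin, was at 390 and 405 CPM with sh20, at 96.3, 119 and 166 CPM with sh10 and at 167 to 329 CPM with *Renilla* (log2 difference 1.64, SE 0.265, adjusted p = 0.0146). *Treml1*, *Clec1b*, *Rab27b* and *Timp3* rose as well. The classical markers *Pf4* (94.8 and 99.3 CPM against 66.2 to 79.5 CPM) and *Itga2b* (570 and 573 CPM against 455 to 568 CPM) did not pass, with adjusted p of 0.170 and 0.368. Summed over the list, sh20 was at 6090 and 6350 CPM, sh10 at 2970 to 4010 CPM and *Renilla* at 3630 to 6820 CPM. The list's median against *Renilla* was -0.782 for sh10 and 0.516 for sh20. The number passing fell to 0 without sh10 replicate A or replicate B, while the median remained at 0.954 and 1.04.

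Of the stem cell regulators 6 of 37 rose and 1 fell, and the median was 0.218. *Mycn*, a Myc family transcription factor, was at 326 and 264 CPM with sh20, at 99.2, 106 and 164 CPM with sh10 and at 170 to 279 CPM with *Renilla* (log2 difference 1.26, SE 0.245, adjusted p = 0.0252). *Esam*, *Ctnnal1*, *Nkx2-3* and *Pdzk1ip1* rose as well. *Cd34*, whose protein defines the CMP gate, was the gene that fell, at 186 and 186 CPM with sh20, 316, 287 and 367 CPM with sh10 and 296 to 400 CPM with *Renilla* (log2 difference -0.80, SE 0.138, adjusted p = 0.0172). *Kit*, the receptor that the gate is also set on, was present in all 5 libraries, at 443 and 636 CPM with sh20 and at 734 to 751 CPM with sh10 (adjusted p = 0.0747). Of the list, 0 genes rose without sh10 replicate A or replicate B, and 8 rose and 6 fell without sh20 replicate C, with a median of 0.116. *Ly6a*, the gene of Sca1, which CMPs lack on their surface, was at 1.57 to 9.75 CPM.

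Of the granulocyte and monocyte genes, those that passed were lower with sh20. *Csf3r*, the G-CSF receptor (chr4:126024550-126044440), was at 17.7 and 23.0 CPM with sh20, at 67.1, 60.7 and 66.9 CPM with sh10 and at 58.5 to 66.2 CPM with *Renilla* (log2 difference -1.67, SE 0.167, adjusted p = 0.00358). Here sh10 overlapped the controls and sh20 stood below both. *Irf8*, a transcription factor of monocytes and dendritic cells, was at 97 and 106 CPM with sh20 and at 285, 274 and 338 CPM with sh10. *Renilla*, at 45.5 to 110 CPM, overlapped sh20, so that sh10 stood above both (log2 difference -1.55, SE 0.312, adjusted p = 0.0277). These were 2 of 34 granulocyte and monocyte genes, a share close to the 5.90% of all genes. Their median was -0.229, which was -0.117 without sh10 replicate C and -0.389 without sh20 replicate B, and without sh20 replicate C 3 were higher and 7 lower. Of 19 mature neutrophil genes only 8 were tested, and *Mmp9* and *Il1b* rose. Without the filter 18 were tested, with 8 positive and a median of -0.306. Of 23 dendritic cell and macrophage genes *C1qa* and *Spic* rose and *Tcf4* fell, of 16 mast cell, basophil and eosinophil genes *Ms4a2* fell, and of 39 erythroid genes *Aqp1* fell. None of 8 tested stromal and endothelial genes passed.

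Of 41 interferon response genes 6 passed as higher with sh20 and 33 had positive differences, with a median of 0.386. With the hairpins alone in the fit, or with the replicate letter as a block, 0 passed. *Irf7*, the transcription factor that amplifies the response, was at 77.7 and 89.0 CPM with sh20, at 34.4, 47.5 and 32.2 CPM with sh10 and at 62.1 to 78.2 CPM with *Renilla* (SE 0.185 of a log2 difference of 1.1, adjusted p = 0.0146). *Oasl2*, an oligoadenylate synthetase-like gene, was at 113 and 64.0 CPM with sh20 and at 26.9, 33.7 and 36.9 CPM with sh10. *Usp18*, which removes the ubiquitin-like ISG15, was at 70.1 and 68.1 CPM with sh20 and at 18.4, 28.6 and 30.2 CPM with sh10. *Xaf1*, *Oas3* and *Igtp* were the others. The list's median against *Renilla* was -0.351 for sh10 and 0.081 for sh20. The number that passed ranged from 0 without sh10 replicate A to 17 higher and 6 lower without sh20 replicate C, and without sh20 replicate B it was 2 and 1.

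Among immediate early genes, which are induced quickly by stimulation and by handling of cells, 4 of 25 rose (*Klf2*, *Nr4a1*, *Zfp36* and *Btg2*), with a median of 0.025. *Klf2* was at 17.8 and 33.5 CPM with sh20, at 5.38, 4.73 and 6.73 CPM with sh10 and at 18 to 30.8 CPM with *Renilla* (log2 difference 2.19, SE 0.355, adjusted p = 0.0146). *Bbc3*, which codes for the apoptosis protein PUMA, and *Btg2* rose of 26 p53 targets. *Xbp1*, *Creld2* and *Cebpb* rose and *Vldlr* fell of 35 genes of ATF4 and the unfolded protein response. Without sh10 replicate A or replicate B no gene of these 3 lists passed as higher.

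**Figure D3:**
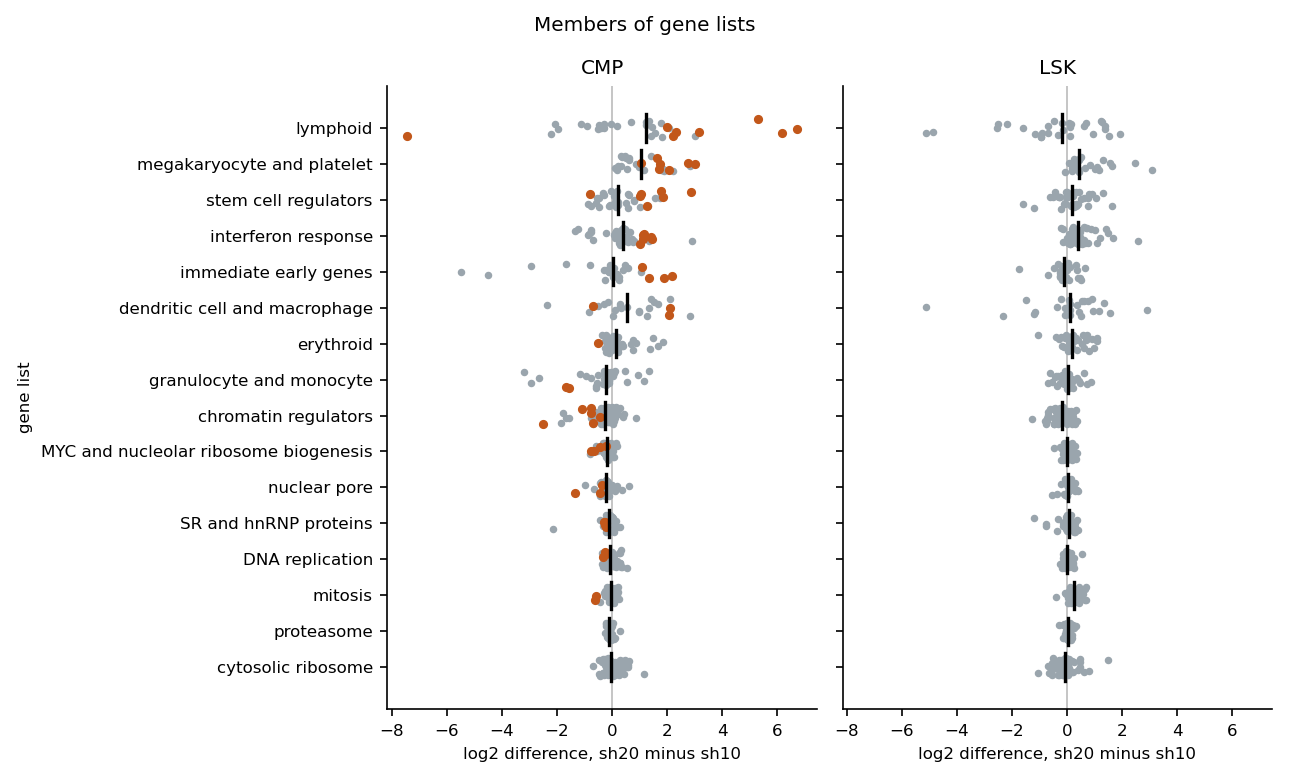
Log2 difference of sh20 minus sh10 for each tested member of 16 gene lists in CMP (left) and LSK (right); points are genes, orange where the gene passed the threshold in CMP, and black bars are list medians. The megakaryocyte members lie to the right of 0 in CMP (median 1.07), while the chromatin regulators lie mostly to the left (median -0.251).

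Of 60 chromatin regulators 6 passed as lower with sh20 and 15 had positive differences, with a median of -0.251. *Suz12*, a core subunit of Polycomb repressive complex 2, was at 143 and 131 CPM with sh20, at 214, 248 and 227 CPM with sh10 and at 142 to 163 CPM with *Renilla* (log2 difference -0.75, SE 0.10, adjusted p = 0.00901). *Bcor*, a subunit of a variant Polycomb complex, was at 68.9 and 82.8 CPM with sh20 and at 129, 129 and 129 CPM with sh10, and *Renilla* lay between, at 86.9 to 95.8 CPM. *Kdm2b*, a demethylase that recruits Polycomb to CpG islands, was at 74.5 and 63.3 CPM with sh20 and at 111, 111 and 112 CPM with sh10. *Nsd1*, *Kat6b* and *Phf6* were the others. The median of the list against *Renilla* was 0.322 for sh10 and 0.045 for sh20. The number that passed was 1 without sh10 replicate B, 2 without replicate C, 3 without replicate A, 18 lower and 2 higher without sh20 replicate C, and 0 with the hairpins alone in the fit. With an offset for exonic length the median was -0.147.

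Of 27 nuclear pore genes 3 fell (*Nup188*, *Nup153* and *Nup50*) and 4 had positive differences, with a median of -0.213. With 1 library of sh10 or sh20 left out 1 passed, except without sh20 replicate C, where 10 did, and with an offset for mean expression the median was -0.126. *Nup188*, a scaffold nucleoporin, was at 55.5 and 78.1 CPM with sh20, at 170, 178 and 155 CPM with sh10 and at 94.1 to 125 CPM with *Renilla* (log2 difference -1.33, SE 0.177, adjusted p = 0.00901). *Nup153* was at 141 and 162 CPM with sh20 and at 213, 200 and 202 CPM with sh10, and *Renilla* was lowest, at 116 to 131 CPM. Of 48 MYC targets and genes of nucleolar ribosome biogenesis 4 fell (*Heatr1*, *Rrp12*, *Nol9* and, with level deposited counts of 2914 and 2773 against 2719 to 2803, *Ncl*), with a median of -0.167. Under the mean expression offset 2 passed and the median was -0.052, and 0 passed without sh10 replicate A or replicate B. *Heatr1*, which acts in the processing of ribosomal RNA, was at 167 and 189 CPM with sh20, at 295, 340 and 270 CPM with sh10 and at 147 to 181 CPM with *Renilla*.

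A group of abundant genes was called lower by small amounts after scaling. For most of those named the deposited counts overlapped, as the larger totals of sh20 make likely for small falls. Of 42 SR and hnRNP splicing factors 5 passed as lower (*Srsf1*, *Hnrnpd*, *Hnrnpm*, *Hnrnpu* and *Ewsr1*), and of 47 DNA replication genes *Pold1*, *Mcm3* and *Mcm4* did. *Hnrnpd* had 1557 and 1494 counts with sh20 and 1529, 1518 and 1497 with sh10, and *Hnrnpm* 2048 and 2133 against 2040, 2162 and 2056, so that these counts overlapped and the difference appears after scaling. *Pold1* was different, with 2200 and 2188 counts against 2308, 2522 and 2221, which did not overlap. *Mcm3*, a subunit of the replicative helicase, with 2423 and 2364 counts against 2266, 2433 and 2268, was at 407 and 412 CPM with sh20 and at 469, 479 and 463 CPM with sh10 (log2 difference -0.20, SE 0.0490, adjusted p = 0.0466). With an offset that removes the trend of each library with mean expression, neither list kept a called gene, and without sh10 replicate A or replicate B neither did. The splicing list also kept none without sh10 replicate C, sh20 replicate B, or *Renilla* replicate B or C, and had 8 without sh20 replicate C. With the offset the median of the DNA replication list went from -0.051 to 0.052.

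For the small RNA machinery, which the hairpins themselves use, 1 of 23 tested genes passed as higher and 2 as lower, with 6 positive and a median of -0.235. Without any one of the sh10 libraries 0 passed, without sh20 replicate C 1 was higher and 7 lower, and without sh20 replicate B the median was -0.056. *Dicer1*, the enzyme that cuts the hairpin to its guide, was at 22.2 and 41.1 CPM with sh20, at 96.9, 70.1 and 77.3 CPM with sh10 and at 34.4 to 53.9 CPM with *Renilla* (log2 difference -1.36, SE 0.296, adjusted p = 0.0334). *Prkra*, a double-stranded RNA binding partner of Dicer and of the kinase PKR, was at 72.6 and 83.8 CPM with sh20 and at 40.8, 49.2 and 42.8 CPM with sh10 (log2 difference 0.82, SE 0.188, adjusted p = 0.0390). *Hsp90ab1*, a chaperone in Argonaute loading, was the other that passed as lower, with a log2 difference of -0.25 after scaling. Its deposited counts, before the larger totals of sh20 are taken into account, were 2189 and 2184 with sh20 and 2210, 2189 and 2174 with sh10. The *Dicer1* difference against *Renilla* was 0.81 (adjusted p = 0.0988) for sh10 and -0.56 (adjusted p = 0.256) for sh20.

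For complex I of the respiratory chain, the comparison between the hairpins depended on the fit. Of 36 complex I genes none passed between the hairpins, and the median log2 difference was -0.054. It was -0.156 with an exonic length offset and 0.031 without sh10 replicate A. In a fit of all 19 libraries it was -0.071, or 0.065 with log2 total counts as covariate added, so that it has no stable sign. It stood beside medians against *Renilla* of -0.264 for sh10 and -0.295 for sh20. Those contrasts share the *Renilla* libraries, and in them 0 genes passed as lower with sh10 and 4 with sh20. The summed level of complex I was 2910 and 2970 CPM with sh20, 2770 to 3180 CPM with sh10 and 3430 to 3620 CPM with *Renilla*, so that the sh20 values lay within the range of sh10. The summed deposited counts were 16900 and 17380 with sh20, 13807 to 15639 with sh10 and 13427 to 14843 with *Renilla*. This is the order of the library totals, so that before scaling these sums do not compare the level of complex I. Of 40 genes of complexes II to IV and the ATP synthase *Atp5a1* passed as lower, at 359 and 366 CPM with sh20 and 439, 416 and 420 CPM with sh10. Its deposited counts, before the larger totals of sh20 are taken into account, were 2135 and 2101 with sh20 and 2119, 2113 and 2060 with sh10. The median of the list was -0.112. In a fit of all 19 libraries no gene of the list passed, and the median was -0.129, or -0.007 with log2 total counts as covariate added. *Ogdh* of 17 TCA cycle genes and *Hk2* of 19 glycolysis genes passed as lower too, and in these sh10 was not below the controls. *Hk2* was at 1.85 and 4.36 CPM with sh20, at 20.3 to 26.3 CPM with sh10 and at 6.50 to 12.6 CPM with *Renilla*. No gene passed among 78 of the cytosolic ribosome, 75 of the mitochondrial ribosome and 38 of the proteasome, with medians of -0.045, 0.021 and -0.091. The first was 0.050 without sh10 replicate A and the second -0.045 without sh10 replicate C and -0.023 without sh20 replicate B, so that neither has a stable sign. A lack of calls with 2 against 3 libraries does not show that the hairpins act alike in these genes.

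None of the genes around *Spehd* passed between the hairpins. *Spehd* is not among the names counted, so that its own level could not be compared. *Gata2*, the hematopoietic transcription factor beside it, was at 478 and 452 CPM with sh20, at 411, 413 and 480 CPM with sh10 and at 501 to 556 CPM with *Renilla* (log2 difference 0.10, SE 0.0776, adjusted p = 0.462). *Rpn1*, a subunit of the oligosaccharyltransferase, differed by -0.13 (SE 0.0627, adjusted p = 0.237). The annotated noncoding gene *Gm38708* of this locus was at 0 and 0.871 CPM with sh20 and at 1.38 to 2.28 CPM with sh10 (adjusted p = 0.301), a level near single counts.

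The guides were then compared with annotated transcripts, as a description. No transcript of 55320 gene symbols matched a whole guide with 0 or 1 mismatches. For sh10 the nearest was *Gm15417*, an antisense gene at chr3:89391850-89398779, with 2 mismatches, shown in capitals in its site, which is printed as the nearest match found.
*Gm15417* site: gagagCaaaagctgactttgAa
*Gm15417* was at 0.504 and 0.174 CPM with sh20 and at 2.69, 1.38 and 0.816 CPM with sh10, so that it was not lower with the hairpin that resembles it (log2 difference -2.17, SE 1.04, adjusted p = 0.219). A further 19 genes for sh10 and 6 for sh20 (*Adnp*, *Cers1*, *Gm20716*, *Gm28053*, *Hipk1* and *Zfp667*) had 4 mismatches. Of the latter, *Hipk1* (log2 difference -0.52, adjusted p = 0.160), *Zfp667* (-0.95, adjusted p = 0.318) and *Adnp* (-0.56, adjusted p = 0.672) were tested and none passed. *Gm28053*, which was not tested, had 23 and 9 counts with sh20 and 0 in every sh10 library, and so was not lower with the hairpin that resembles it. Of the 19 genes for sh10, 8 were tested, with log2 differences from -0.304 to 0.570 and 6 of them negative. One passed, *Slc50a1*, a sugar transporter with the resembling site in a 3′ UTR and chosen here after its values were seen. It was at 107 and 86.3 CPM with sh20, at 72.7, 61.4 and 61.6 CPM with sh10 and at 93.3 to 113 CPM with *Renilla*, so that sh10 lay below both (log2 difference 0.57, SE 0.143, adjusted p = 0.0494). Its adjusted p was 0.0074 with DESeq2 and 0.0903 to 0.165 without sh10 replicate A, B or C or sh20 replicate B, and in LSK cells the log2 difference was 0.09 (adjusted p = 0.928).

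Seed matches are more common. The motif ACTTTGT, which pairs with the sh10 seed, was found in 17.9% of 21153 annotated 3′ UTRs, and ATAGCAT, which pairs with that of sh20, in 8.90%, on the transcribed strand only. Of 11929 tested genes with an annotated 3′ UTR, 2037 held only the sh10 match, 700 only that of sh20, 417 both and 8775 neither. A negative difference is a lower level with sh20, and a positive one a lower level with sh10. Among genes with the sh20 match alone 39 fell and 16 rose, with a median log2 difference of -0.064. Among those with the sh10 match alone 85 fell and 48 rose, with a median of -0.025. With neither, 299 fell and 260 rose, with a median of 0.012.

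Genes with matches have longer 3′ UTRs, at a median of 2473 bases for the sh20 match alone and 1035 for neither, and the difference between the hairpins followed that length with or without a match. From the shortest to the longest of 4 equal classes of 3′ UTR length the median went from 0.059 to -0.089 for genes without an sh20 match, and from 0.054 to -0.079 for genes with one. Over all lengths, genes with an sh20 match were lower by 0.066 (SD between replicates 0.0295) than genes without. Within the 4 classes, from short to long, this was -0.004, -0.052, -0.012 and 0.010. For the sh10 match it was -0.034 over all lengths (SD 0.0231) and 0.017, 0.022, -0.002 and -0.003 within the classes. In 3 of the 4 classes, the longest included, the shift of 7-base matches was within the spread between replicates for both guides. In the class next to the shortest it was larger than that spread for sh20 (SD 0.0144) and, by a little, for sh10 (SD 0.0205), where its positive sign is that of a lower level with sh10. With the match followed by A, 8 bases in all, the sh20 difference was -0.048 (SD 0.032) and that of sh10 -0.022 (SD 0.0179) over all lengths. Within the classes the 8-base sh10 difference was 0.063 (SD 0.0299), 0.051 (SD 0.0226), -0.008 (SD 0.0345) and -0.001 (SD 0.0177), so that it was larger than the spread in both classes of shorter 3′ UTRs. That of sh20 was -0.039 (SD 0.289), 0.002 (SD 0.0447), 0.070 (SD 0.0495) and -0.026 (SD 0.0454), larger than the spread in 1 class and there in the direction of a higher level with sh20. Of the 12 largest falls with sh20, 2 held its match and 1 that of sh10.

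**Figure D4:**
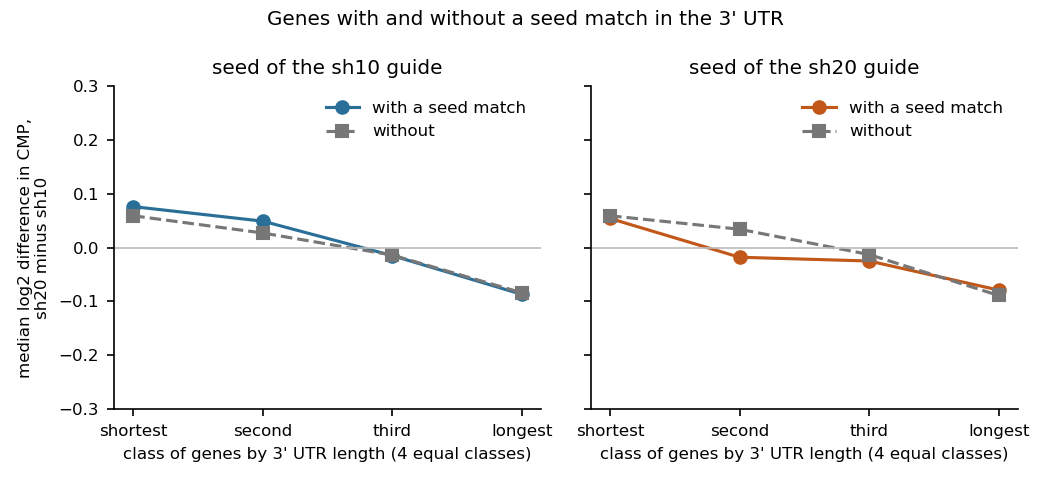
Median log2 difference of sh20 minus sh10 in CMPs for genes with (circles) and without (squares) a 7-base match to the sh10 seed (left) or sh20 seed (right), in 4 equal classes of 3′ UTR length. Both lines fall from the shortest to the longest class, from 0.059 to -0.089 for genes without an sh20 match.

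LSK cells hold the same hairpins in other libraries. There edgeR called no gene of 13828 between sh20 and sh10 (0%), with 1246 at an unadjusted p under 0.05, and DESeq2 called 105 genes higher and 151 lower with sh20. One library, sh10 replicate B, stood apart in LSK cells, with a mean exonic length behind a count of 5127 bases against 5764 and 5918 in the other 2 of sh10, and without it edgeR called 2 genes. Of the 355 genes higher with sh20 in CMPs, 325 were tested in LSK cells and 77.8% were higher there too, with a median of 0.319. An unadjusted p under 0.05 in that direction was found for 23.1%, beside 3.68% of all genes tested in both cell types. Of the 461 genes lower in CMPs, 453 were tested, 65.8% were lower and the median was -0.140. There 14.8% had an unadjusted p under 0.05, beside 5.22% of all genes. Without LSK sh10 replicate B the shares in the same direction were 83.9% and 77.0%, and over the fits without 1 library of sh10 or sh20 they were at least 70.7% and 54.6%.

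*Mycn* was at 235, 379 and 387 CPM with sh20 and at 174, 143 and 170 CPM with sh10 in LSK cells (log2 difference 1.04, SE 0.177, adjusted p = 0.0867). The *Renilla* libraries, at 230 to 286 CPM, lay above sh10 as they did in CMPs. *Gimap3* was uneven in LSK cells, at 1.97, 28.7 and 29.9 CPM with sh20 and at 3.39, 11.2 and 3.32 CPM with sh10. *Cd3g* and *Cd3e* had 1 to 5 counts in each LSK library of the hairpins and were not tested there. Of the other lymphoid genes that rose in CMPs and were tested in LSK cells, the log2 difference in LSK cells was 0.10 for *Lck*, 0.69 for *Cd7*, 1.27 for *Klrd1* and 1.91 for *Ncr1*, and none passed (edgeR adjusted p of 0.558 to 0.939). In the megakaryocyte list 26 of 27 genes were positive in LSK cells, with a median of 0.448, and in the interferon list 40 of 44, with a median of 0.386. With 1 library of sh10 or sh20 left out these medians were 0.274 (without sh20 replicate B) to 0.535 and 0.303 to 0.436. The lymphoid list was not shifted to higher values, with 13 of 29 positive and a median of -0.168, which was -0.046 without sh10 replicate B and -0.425 without sh20 replicate A. In the mature neutrophil list 2 of 15 were positive in LSK cells, with a median of -3.53, and its dependence on single libraries was not counted. *Mmp9*, higher with sh20 in CMPs, was at 0.197 to 2.03 CPM with sh20 and at 0.357 to 24.8 CPM with sh10 in LSK cells. For the chromatin regulators the median was -0.181 with 16 of 60 positive, but this depended on the sh10 libraries: it was -0.367 without replicate B, and -0.049 with 28 of 60 positive without replicate C. Of 42 mitosis genes 2 passed as lower in CMPs (4.76%), with a median of -0.046. In LSK cells 39 of the 42 were positive, with a median of 0.26, which was 0.107 without sh10 replicate B.

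The difference between the hairpins was then tested for a difference between the cell types, and 39 of 15066 genes passed (0.259%), of which 31 were lower in CMPs relative to LSK cells. *Prdm10* was one of them. In LSK cells it was at 15.8, 29.3 and 27.2 CPM with sh20 and at 25, 11.4 and 26.2 CPM with sh10, with full overlap, while both sh20 libraries of CMPs were at 1.18 CPM or less. The log2 difference of CMP minus LSK was -5.58 (SE 0.654, adjusted p = 0.00129). *P2ry2*, a receptor for extracellular nucleotides, was at 0.841 and 0.697 CPM with sh20 and 13.4 to 17.6 CPM with sh10 in CMPs, but at 20.7 to 31.1 CPM and 36.1 to 53.2 CPM in LSK cells (difference -3.59, SE 0.426, adjusted p = 0.00129). *Vdr*, the vitamin D receptor, was at 0.841 and 0.871 CPM with sh20 and 10.1 to 20.6 CPM with sh10 in CMPs, and at 26.1 to 69.1 CPM and 26.0 to 35.9 CPM in LSK cells (difference -4.56, SE 0.605, adjusted p = 0.00320). *Aim2*, a sensor of cytosolic DNA, followed with -3.90 (SE 0.516, adjusted p = 0.00320). *Csf3r* fell in CMPs and was lower in LSK cells too, at 155 to 200 CPM with sh20 and 232 to 288 CPM with sh10, and the difference between cell types was -1.19 (SE 0.177, adjusted p = 0.00838). Without CMP sh20 replicate C 742 genes passed this test, and with the 2 hairpins alone in the fit none did.

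**Figure D5:**
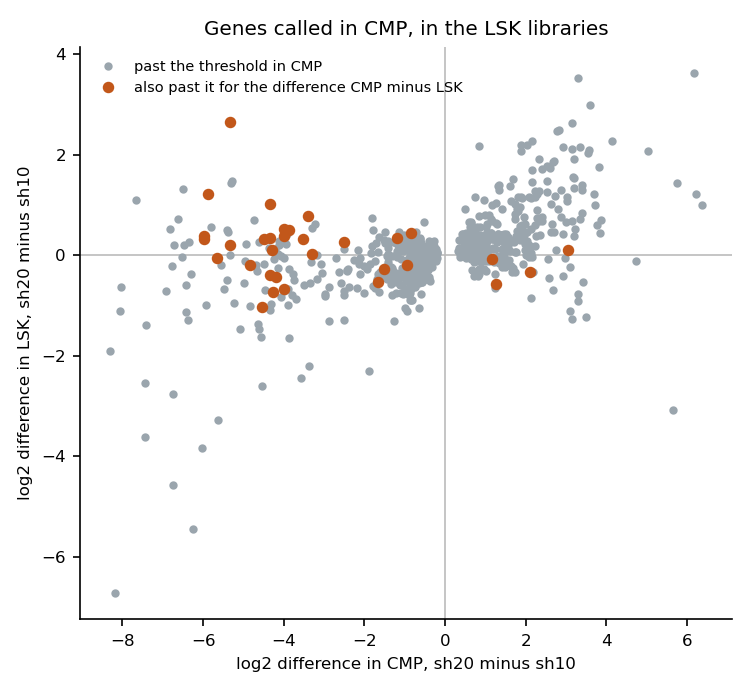
Log2 difference of sh20 minus sh10 in CMP (horizontal) and in LSK (vertical) for genes past the threshold in CMP and tested in LSK; each point is 1 gene, in orange where the difference between the cell types also passed. Of the genes higher in CMP 77.8% lie above 0 in LSK, and of those lower in CMP 65.8% lie below 0.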

How the data were processed

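RNA of CMP and LSK cells was sequenced from SMART-Seq v4 libraries on an Illumina HiSeq. Per the labels and methods, the authors aligned with STAR to mm10, dropped duplicates with Picard and used HTSeq-count for the genes of a GENCODE annotation. The deposited values used are whole counts per gene and library, without normalization; a table of normalized values was not used here. The sources name no molecular identifiers, and after removal of duplicates the most counted gene of a library held 3464 to 5235 counts. Default parameters are stated, under which HTSeq-count counts by strand; whether the libraries kept the strand is not given in the sources used here. Rows for reads on no gene (26.4% to 32.2% of all entries of a file), ambiguous reads and reads without a unique alignment were left out.

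CMP libraries were fitted in 3 groups with edgeR 4.0.16 (R 4.3.3), by TMM, filterByExpr (minimum count 10, minimum total 15), a robust quasi-likelihood test, and Benjamini-Hochberg adjustment over all genes tested with a threshold of 0.05. LSK libraries were fitted likewise, and all 19 libraries in 6 groups for the difference between cell types. CPM of single genes are counts scaled by the total of the genes tested in each library times its TMM factor, which was 0.9735 to 1.022 in CMPs. Summed CPM of lists are scaled by the total on all genes, without that factor. DESeq2 1.42.0 was an alternative. The code was tested on simulated data. Library measures were compared by exact permutation tests. Intervals and floors cover counting error only. Coordinates, exonic lengths and 3′ UTRs are of GENCODE vM21 on GRCm38 (the assembly of mm10), matched by symbol to 53669 of 54352 genes.

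The genes named are the 12 largest rises and 12 largest falls among called genes whose groups did not overlap and whose mean was 50 counts or more, up to 3 genes per list by p, genes matching a guide, genes of the *Spehd* locus and the 5 smallest p for the difference between cell types. Called list members beside these, *Sox18*, *Slc50a1*, *Slc39a4*, *Zfp455*, *Pf4*, *Itga2b*, *Ly6a*, *Cd4* and *Cd8a* were named after their values were seen. The libraries, lists and tests were chosen with earlier results of these data known. Some genes that these rules name are not reported here.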

Additional observations from a re-analysis of the deposited data

Results flagged for a closer look

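In 9 of 106 named genes 1 of the 4 CMP libraries of *Renilla* stood apart from the others, and chance alone marks about 1 in 20 such groups. These were *Gm10419* at 35.6 CPM, *Ctnnal1* at 14.9 CPM, *Rag2* at 10.6 CPM, *Lck* at 124 CPM, *Mycn* at 170 CPM, *Tcf4* at 114 CPM, *Nol9* at 126 CPM, *Srsf1* at 426 CPM and *Hnrnpu* at 900 CPM. Among LSK libraries of *Renilla*, 1 had 5.60% of its counts in the 100 most counted genes, apart from the other 3.

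The difference between the hairpins differed between CMP and LSK cells for 39 genes by edgeR's test of that difference. The 5 with the smallest p were *Prdm10* (-5.58 on the log2 scale), *P2ry2* (-3.59), *Aim2* (-3.90), *Vdr* (-4.56) and *Csf3r* (-1.19), all lower with sh20 in CMPs relative to LSK cells.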

How the results depend on the processing

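Counts of called genes in CMPs (355 higher and 461 lower with sh20) stayed within 1.5 times under other size factors, an offset for exonic length or for mean expression, other filters and a fit of all 19 libraries. With 1 library left out they ranged from 21 to 1548 higher and from 50 to 1905 lower. DESeq2 gave 935 and 1043, a fit of sh10 and sh20 alone 9 and 9, and log2 total counts as covariate, added to the fit of all 19 libraries, 243 and 305. With the replicate letter as a block they were 7 and 15. Deviations of libraries of the same letter from their group means had correlations of -0.0471 to 0.0582. With so few libraries per group these cannot decide whether the letter is a pairing. In LSK cells 0 genes were called, with DESeq2 256, without a filter 56, in a fit of all 19 libraries 27, with the covariate added to that fit 13, with the length offset 5, and with 1 library left out 0 to 5. For the difference between cell types (39), DESeq2 called 303, a test of all genes 176, a minimum of 10 counts per library 6, the replicate block 11, the covariate 20, the hairpins alone 0, and fits without 1 library 20 to 742.

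Of 2087 values of named genes under these settings, 692 lost and 3 gained a call. The 4 that changed sign were *Rpn1* (0.05), *Hnrnpu* (0.03) and *Ncl* (0.01) with the offset for mean expression, and *Adnp* (0.28) without CMP sh10 replicate A (-0.89 to 0.28 over such fits). The share of the 100 most counted genes, -0.271 percentage points for sh20 minus sh10 in CMPs and LSK cells (exact permutation p = 0.035, adjusted p = 0.0933), ranged from -0.3085 to -0.2443 with 1 library left out, with p up to 0.117. Seed match differences within classes of 3′ UTR length, from short to long, were 0.017, 0.022, -0.002 and -0.003 for sh10, and -0.004, -0.052, -0.012 and 0.010 for sh20. The cause of these shifts was not tested. With 2 libraries of sh20, no exact test within CMPs can fall below 0.1.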
